A study of Homo sapiens with 8 samples.

Results

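Inflammatory chemokines and cytokines are secreted proteins that call leukocytes to a tissue and alert its other cells. The chemokines CXCL1, CXCL2, CXCL3, CXCL5 and CXCL8 carry a glutamate-leucine-arginine motif before their first cysteines and draw neutrophils. The receptors of this group are CXCR1 and CXCR2. CCL2 draws monocytes through CCR2, and CCL20 draws dendritic cells and lymphocytes through CCR6. IL1A and IL1B encode the interleukin-1 cytokines and IL6 encodes interleukin-6, all inducers of the acute inflammatory response. In epithelial cells the transcription factors NF-kappaB and AP-1 switch these genes on, and their short-lived messages are degraded through AU-rich elements.

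The 10 genes named above were looked up on an exon array by symbol, taking rows annotated to exactly 1 gene symbol. This found 9 of the 10 genes on 10 rows, out of 14271 genes with such a row and 18495 rows in all. IL6 had 2 rows and was represented by the brighter one. CXCL1 was annotated only on a row that also carries CXCL2. That row is given below under both symbols and is not counted among the 9.

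The cells were PNT2, an established cell line of human prostatic epithelium that was immortalized. In 4 samples (siESRP) they received small interfering RNA against ESRP1 and ESRP2, epithelial RNA-binding proteins that control splicing. In 4 control samples (siGFP) the small interfering RNA was directed at GFP. All 8 samples were of that cell line in the same serum-supplemented medium, and the labels name no inflammatory stimulus. No label states that the 4 samples of a group were grown as separate cultures. The p-values therefore measure the spread among these arrays, and that spread may be technical.

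Deposited array medians ran from 233 to 286, and no pair of arrays had a Spearman correlation under 0.979 after normalization. ESRP1 fell from 2439 ± 169 to 582 ± 66.9 (SD, n = 4 each, limma adjusted p = 6.58e-05), in the direction the labels give. ESRP2 was annotated only on a row shared with NFATC3, which fell from 531 ± 33.4 to 148 ± 27.4 (SD, n = 4 each, limma adjusted p = 0.000336). Of 9 measured epithelial markers 3 rose, CDH1 and KRT18 among them, and 1 fell, KRT14 from 765 to 367 (limma adjusted p = 0.00465). Their sum ran from 27300 to 28100 on siGFP arrays and from 30000 to 30800 on siESRP arrays. Of 10 measured leukocyte markers, CSF1R fell from 154 to 80.9 and CD68 rose from 551 to 747, while the pan-leukocyte marker PTPRC was at 10.7 and 12.8. The leukocyte list summed to between 949 and 1020 in siGFP and between 1020 and 1280 in siESRP, and none of its genes was at 0 on all arrays. The 7 fibroblast markers summed to between 494 and 561 in siGFP and between 406 and 483 in siESRP, with COL1A1 called lower. The 6 endothelial markers summed to between 351 and 411 and between 426 and 509, with CDH5 called higher and TEK lower. The part of these markers in the results below was not tested.

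CXCL8 and CCL20 were lower in siESRP than in siGFP, and the other 7 genes did not pass the test. A row passed, or was called, when limma's p-value adjusted by Benjamini-Hochberg over all 18495 rows was under 0.05. By that rule 2 of 9 genes (22.2%) were lower and 0 were higher, and 3 of 9 had an unadjusted limma p under 0.05. Ranked on the same unadjusted test, the chemokine CCL28, outside the 9 and just under that bound, stood at 32.6% of all rows. About that share of all rows therefore lay under the bound too, and 3 of 9 is not read as an excess. Over all rows, 20.2% were called, 9.31% as lower and 10.9% as higher. With so few genes, nothing about the group as a whole is read from a count of 2. The groups of arrays did not overlap for the same 2 genes, both with siESRP below, while 24.7% of all rows had non-overlapping groups, 12.0% with siESRP below and 12.7% with siESRP above. The log2 difference was negative for 8 of the 9 genes. Their median was −0.15, beside −0.02 for all rows. The share of all rows with a negative difference was not computed, so the count of 8 is not read as a lean of the group. In the deposited values, CXCL3, CXCL5, IL6, IL1A and IL1B lay between −0.07 and −0.02 relative to the median of all rows.

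**Figure D1:**
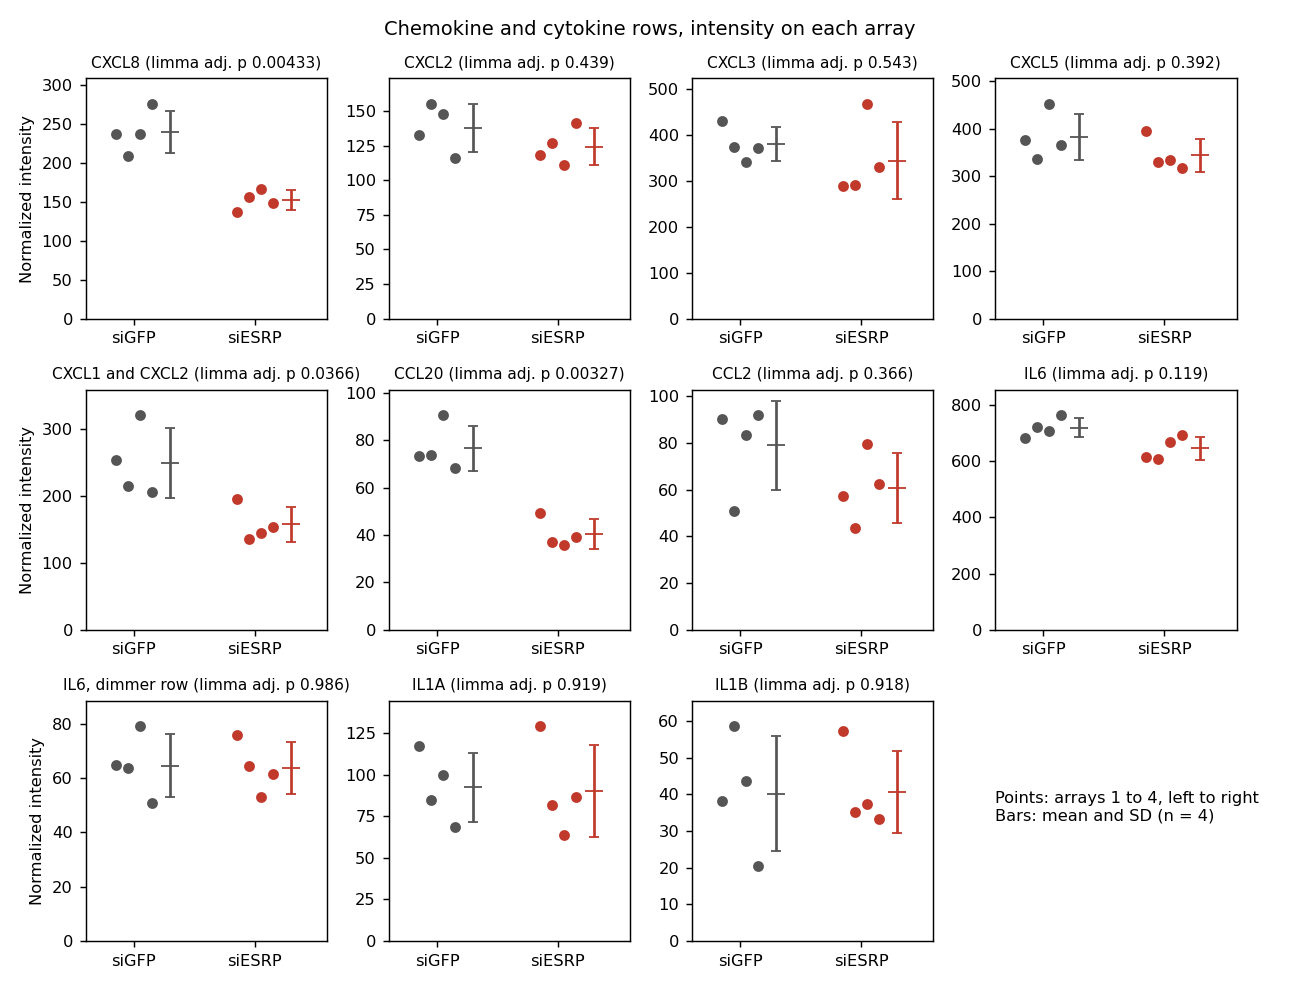
Normalized intensity (vertical axes, starting at 0) of each chemokine and cytokine row on the 4 siGFP and 4 siESRP arrays, with mean and SD at the right of each group and limma's adjusted p in each title. The CXCL8, CCL20 and shared CXCL1 and CXCL2 rows have all 4 siESRP points below all 4 siGFP points, and the other 8 panels overlap.

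CXCL8 encodes interleukin-8, the main neutrophil attractant made by human epithelium. Its normalized intensity was 237, 209.6, 238 and 276 on the siGFP arrays, in replicate order. On the siESRP arrays it was 138, 156, 167 and 149. Every siESRP array was below every siGFP array, and the nearest arrays of the groups were at 167 and 209.6. The mean fell from 240.1 ± 27.1 to 153 ± 12.5 (SD, n = 4 each), which is 1.57-fold lower. These means are near or below the deposited array medians of 233 to 286, so the unknown background may affect the size of this change too. CXCL8 had a log2 difference of −0.65 ± 0.10 (SE), a 95% interval from −0.88 to −0.42 and limma adjusted p = 0.00433.

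CCL20, an attractant for CCR6-bearing lymphocytes and dendritic cells at epithelial surfaces, was dim. It read 73.5, 73.9, 90.6 and 68.5 in siGFP. It read 49.5, 37.2, 35.8 and 39.0 in siESRP. The groups did not overlap, and siESRP replicate 1 was the highest of its group. The mean fell from 76.6 ± 9.64 to 40.4 ± 6.23 (SD, n = 4 each). On the log2 scale CCL20 differed by −0.91 ± 0.13 (SE), with a 95% interval from −1.21 to −0.61 and limma adjusted p = 0.00327. The pseudocount and the unknown background of such a dim row make the size of this change less certain than its direction.

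The upstream sequences of these genes were searched for short spellings without use of the array values. The array results decided which genes are printed in full and are set beside the matches below. Genes of this kind are known to be switched on by NF-kappaB and AP-1, so finding such spellings is not an independent result. RefSeq promoter entries of build GRCh38.p14 were available for 9 of the 10 genes, and the 250 bases before each start site were searched on both strands for the NF-kappaB-type spelling GGNNTTTCC, the AP-1-type spelling TGANTCA and the TATA-type spelling TATAAA. These spellings were chosen with the sequences in view. The 2 genes that fell are printed below, 5′ to 3′ on the strand of the gene, with the matches to these 3 spellings in capitals. CXCL8 lies at chr4:73740319-73740568 on the plus strand, and CCL20 at chr2:227813592-227813841 on the plus strand.
CXCL8: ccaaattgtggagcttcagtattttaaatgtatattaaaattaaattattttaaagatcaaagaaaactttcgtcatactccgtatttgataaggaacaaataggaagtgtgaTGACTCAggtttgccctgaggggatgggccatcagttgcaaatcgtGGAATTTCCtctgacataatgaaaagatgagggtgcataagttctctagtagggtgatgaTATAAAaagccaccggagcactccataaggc
CCL20: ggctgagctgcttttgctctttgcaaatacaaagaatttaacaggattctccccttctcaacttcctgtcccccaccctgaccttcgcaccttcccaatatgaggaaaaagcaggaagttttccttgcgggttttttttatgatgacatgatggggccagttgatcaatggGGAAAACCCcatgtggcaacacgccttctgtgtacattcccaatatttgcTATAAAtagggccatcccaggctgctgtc

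The CXCL8 promoter held the NF-kappaB-type match GGAATTTCC, which began 91 bases before the start site, and an AP-1-type match TGACTCA that began 137 bases before it. In CCL20 the NF-kappaB-type match lay on the opposite strand and began 79 bases before the start site, and no AP-1-type match was found in this window. Both had the TATA-type match, at 31 bases before the start in CXCL8 and 29 in CCL20. Of 35116 promoter windows of the same length, 5.48% held the NF-kappaB-type spelling, 6.57% the AP-1-type and 10.7% the TATA-type.

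The NF-kappaB-type spelling was found in 7 of the 9 genes with an entry: CXCL8 and CCL20, which were called lower, and 5 others. Of those 5, CXCL1 had no row of its own. The rest did not pass, which does not show that they were unchanged. To compare the genes, 1 match each (capitals) is printed with 15 bases on each side for the 5 others, 5′ to 3′ on the strand of the gene. CXCL1 is at chr4:73869300-73869338 (plus strand), CXCL2 at chr4:74099249-74099287 (minus), CXCL3 at chr4:74038744-74038782 (minus), CXCL5 at chr4:73998744-73998782 (minus) and IL6 at chr7:22727113-22727151 (plus).
CXCL1: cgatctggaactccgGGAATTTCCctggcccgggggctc
CXCL2: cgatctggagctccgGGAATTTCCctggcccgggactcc
CXCL3: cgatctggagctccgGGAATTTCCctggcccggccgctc
CXCL5: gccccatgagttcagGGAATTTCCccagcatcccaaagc
IL6: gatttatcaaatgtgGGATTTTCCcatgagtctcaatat

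The exact spelling GGAATTTCC, found in 0.413% of all windows, was shared by CXCL1, CXCL2, CXCL3, CXCL5 and CXCL8. CXCL1, CXCL2 and CXCL3 each held a further NF-kappaB-type match, GGGCTTTCC, which began 53 bases before the start site, outside the bases printed. The 5 genes that share GGAATTTCC lie in 1 cluster on chromosome 4. Of the 39 bases printed, CXCL1 and CXCL3 were identical at 36 and CXCL1 and CXCL2 at 34, whereas CXCL1 and CXCL8 were identical at 19. IL1B and IL1A had no NF-kappaB-type match in this window. The windows of the 2 promoter entries of IL1A overlap. They held AP-1-type matches, TGACTCA at 1 site that lies in both windows and TGAGTCA in 1 of them. CXCL8, which fell, and CXCL5, which did not pass, therefore carried the same 9 letters.

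CXCL1, CXCL2 and CXCL3 are close copies of each other, the GRO chemokines, so array values for any of them may include signal from the others. The row annotated to both CXCL1 and CXCL2 read 254, 215, 320.1 and 206 in siGFP. It read 195, 135, 145 and 154 in siESRP. The groups did not overlap, although siESRP replicate 1, at 195, was close to siGFP replicate 4, at 206. The mean fell from 249 ± 51.9 to 157 ± 26.1 (SD, n = 4 each), with a log2 difference of −0.65 ± 0.17 (SE) and limma adjusted p = 0.0366. This call was fragile: it ended in 6 of the 8 fits that left out 1 array, with adjusted p between 0.0508 and 0.0896, and was kept only without siGFP replicate 4 or siESRP replicate 1. It also ended on the deposited scale (adjusted p = 0.0981) and with array weights (0.0616).

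The row of CXCL2 alone did not pass. It read 133, 155, 148 and 116 in siGFP. It read 118, 127, 111 and 141 in siESRP. The groups overlapped throughout, since siESRP replicate 4 was above 2 of the siGFP arrays. The log2 difference was −0.14, with a 95% interval from −0.41 to 0.12 (limma adjusted p = 0.439). Whether the shared row follows CXCL1, CXCL2 or both cannot be told from these rows.

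CXCL3 was 430.4, 374, 341 and 372 in siGFP. In siESRP it was 288, 289.9, 466 and 329. Of the siESRP arrays, 3 were below every siGFP array and replicate 3 was above all of them. CXCL3 had a log2 difference of −0.17, with a 95% interval from −0.56 to 0.22 (limma adjusted p = 0.543). Without siESRP replicate 3 it was −0.33 with adjusted p = 0.0596.

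CXCL5, another neutrophil attractant, was 377, 337, 452 and 366 in siGFP. In siESRP it was 394, 329, 334 and 317. Here too 3 siESRP arrays were below every siGFP array, but the high one was replicate 1. The log2 difference was −0.15, with a 95% interval from −0.41 to 0.10 (limma adjusted p = 0.392). The array that stood high among the siESRP arrays was thus not the same one for CXCL3 and CXCL5.

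CCL2, the monocyte attractant, was a dim row with wide spread. It read 90.0, 50.6, 83.1 and 91.8 in siGFP. It read 57.2, 43.5, 79.5 and 62.5 in siESRP. Replicate 2 was the lowest array of both groups, and the groups overlapped because siGFP replicate 2 was below 3 of the siESRP arrays. CCL2 had a log2 difference of −0.37, with a 95% interval from −0.95 to 0.22 (limma adjusted p = 0.366). Without siGFP replicate 2 it was −0.56, with adjusted p = 0.108.

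IL6, a cytokine that signals through IL6ST (gp130) and STAT3, was 684, 723, 706 and 763 in siGFP. In siESRP it was 616, 609, 666 and 693. The groups touched, with siESRP replicate 4 above siGFP replicate 1. The mean was 719 ± 33.4 in siGFP and 646 ± 40.4 in siESRP (SD, n = 4 each). The log2 difference was −0.15 ± 0.06 (SE), with a 95% interval from −0.30 to −0.01. That interval leaves out 0, but the p adjusted over all rows was 0.119 (limma). The dimmer row of IL6 had means of 64.6 and 63.8 and a log2 difference of −0.01 (limma adjusted p = 0.986).

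The interleukin-1 genes showed no direction. IL1A was 117, 84.9, 100 and 68.5 in siGFP. It was 129, 81.6, 63.5 and 86.8 in siESRP. The highest and the lowest of the 8 values were both siESRP arrays. The log2 difference of IL1A was −0.06, with a 95% interval from −0.64 to 0.53 (limma adjusted p = 0.919).

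IL1B, which is made as a precursor and cut by caspase-1, was near background. It read 38.2, 58.5, 43.5 and 20.4 in siGFP. It read 57.2, 35.1, 37.2 and 33.1 in siESRP. The groups overlapped almost completely, and the log2 difference was 0.08, with a 95% interval from −0.70 to 0.86 (limma adjusted p = 0.918). For both genes the interval reaches down about as far as the −0.65 of CXCL8, so a fall of that size was hardly detectable in these dim rows. The direction of IL1B turned to −0.15 in the deposited values and to −0.16 after median scaling.

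**Figure D2:**
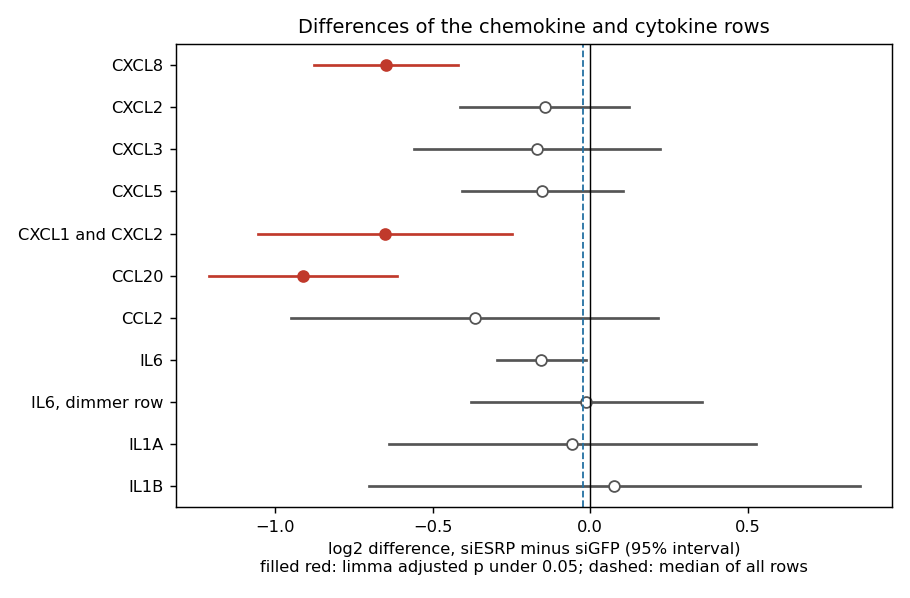
The log2 difference, siESRP minus siGFP, of each chemokine and cytokine row with its 95% interval (horizontal axis), in red and filled where limma's adjusted p is under 0.05; the dashed line is the median of all rows, −0.02. CXCL8, CCL20 and the shared row lie left of 0 with their whole intervals, and IL1B has the widest interval of those shown, followed by CCL2 and IL1A.

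The arrays did not rank the same way for all genes. Of the siESRP arrays, replicate 1 was the highest for 4 of the 9 genes (CCL20, CXCL5, IL1A and IL1B) and replicate 3 for 3 (CXCL8, CXCL3 and CCL2). Replicate 2 was the highest for 0. Of the siGFP arrays, replicate 4 was both the highest for 3 genes and the lowest for 4. No array was highest or lowest for more than 4 of the 9.

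The ratio of 2 rows within each array compares their changes directly, here in the normalized values. These 7 comparisons were chosen after the values were seen. The log2 ratio of CXCL8 to CXCL3 differed by −0.48 (siESRP minus siGFP), that to CXCL5 by −0.49 and that to IL6 by −0.49. In each the groups were apart, with p = 0.0286 in an exact permutation test (two-sided), which is the lowest value possible with 4 arrays a group, and an adjusted p of 0.05 over the 7 comparisons, which is not under the threshold. Against CXCL2 the difference was −0.50 (exact permutation p = 0.0571, adjusted 0.0799). CCL20 against CCL2 differed by −0.55 (exact permutation p = 0.171, adjusted 0.200) and CCL20 against CXCL8 by −0.26 (exact permutation p = 0.286). CCL20 against CXCL8 differed more, by −0.42, in the deposited values and after median scaling (exact permutation p = 0.0286 in both). In both of these scalings CXCL8 against CXCL5 and against IL6 had exact permutation p = 0.0571, and CXCL8 against CXCL3 kept 0.0286. No adjusted p was under 0.0666 in either of them.

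CXCL6, which is also a CXCR1 and CXCR2 ligand and is not among the 10, went the other way. It rose from 80.3 ± 16.3 to 127 ± 18.6 (SD, n = 4 each), a log2 difference of 0.66 ± 0.17 (SE, limma adjusted p = 0.0339). The log2 ratio of CXCL8 to CXCL6 differed by −1.31 (exact permutation p = 0.0286, adjusted 0.05). The call of CXCL6 ended in 5 of 8 fits without 1 array, with adjusted p between 0.0738 and 0.0876, and was kept only without siGFP replicate 1, siGFP replicate 2 or siESRP replicate 3. It also ended in the deposited values (adjusted p = 0.0795).

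Among 25 other chemokines measured, CXCL6 and 2 more rose and 1 fell, with a list median of 0.04 on the log2 scale beside −0.02 for all rows. The share called over all rows was 20.2%. The transmembrane chemokine CXCL16 rose from 1134 to 1412 (log2 difference 0.32, limma adjusted p = 0.0216), and its call ended without siGFP replicate 1 (adjusted p = 0.0561) and in the deposited values (0.0623). CCL18 was called higher at 60.4 and 75.3, and CXCL14 lower at 8.12 and 3.20, both dim. The CCL18 call ended in 6 of 8 fits without 1 array (adjusted p up to 0.0690; kept only without siGFP replicate 3 or 4) and the CXCL14 call in 7 of 8 (up to 0.116; kept only without siESRP replicate 1). The log2 difference of CCL18 was 0.32 as reported, 0.16 in the deposited values (adjusted p = 0.566) and 0.15 with median scaling (0.507). That of CXCL14 was −1.25 as reported, −2.06 and −2.08 in these 2 scalings and −0.33 with a pseudocount of 16. With trended and robust eBayes neither passed (adjusted p = 0.108 for CCL18 and 0.0793 for CXCL14), and CXCL14 did not with array weights (0.103). Both means were under 50 for 12 of the 25.

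None of 18 chemokine receptors passed in limma's test, and 1 had an unadjusted p under 0.05. That 1 was CCRL2, at 68.4 and 111 (adjusted p = 0.0553). CCR6, the receptor of CCL20, was at 48.9 ± 11.0 and 64.3 ± 6.96 (SD, n = 4 each, limma adjusted p = 0.168). CCR2, the receptor of CCL2, was near background at 14.8 in both groups. CXCR1 and CXCR2 have no value here, as neither had a row with 1 symbol. Both group means were under 100 for 16 of the 18 receptors.

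Of 24 measured genes of the interleukin-1 family, its receptors and their signalling, 2 rose and 4 fell, with a list median of −0.12. That share of called genes is near the 20.2% called over all rows. IL1RAP, the accessory chain of the receptor, rose from 1124 ± 50.7 to 1603 ± 62.5 (SD, n = 4 each, log2 difference 0.51, limma adjusted p = 0.000772). IL1R1, the signalling receptor, rose from 118 ± 15.5 to 166 ± 1.85 (log2 difference 0.50, limma adjusted p = 0.0114). The kinase IRAK1 fell from 1715 to 1226, the ubiquitin ligase TRAF6 from 985 to 796 and the kinase-complex subunit TAB1 from 216 to 152. SIGIRR, an inhibitory member of the receptor family, fell from 572 to 365 (log2 difference −0.65, limma adjusted p = 0.00521). In the deposited values IL1RAP, IL1R1 and TRAF6 lost their calls (limma adjusted p = 0.0528, 0.0723 and 0.150). The decoy receptor IL1R2, at 1870.3 and 1625, and the receptor antagonist IL1RN, at 304 and 380.5, did not pass (adjusted p = 0.196 and 0.231). The IL1R2 row passed in the fit without siGFP replicate 4 (adjusted p = 0.0456).

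Of 14 measured genes of the interleukin-6 family, its receptors and their signalling, 4 rose and 0 fell, with a list median of 0.03. Over all rows 10.9% were called higher and 9.31% lower, and a difference from those shares was not tested. IL6ST, the signal-transducing chain for IL6, rose from 1260 ± 85.2 to 1593 ± 87.0 (SD, n = 4 each, log2 difference 0.34, limma adjusted p = 0.0110). OSMR, the oncostatin M receptor, rose 1.79-fold from 958 to 1711, the cytokine LIF from 780.2 to 1132, and STAT3 from 2679 to 3101. IL6R, the chain that binds IL6 itself, was 190.1 and 194 (limma adjusted p = 0.819). With median scaling or on the deposited scale, IL6ST, STAT3 and LIF no longer passed, and OSMR did.

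Of 20 other cytokines measured, 1 rose and 3 fell, with a list median of −0.03. The share called over all rows, 20.2%, is near that of this list. TNFSF15, a TNF-family ligand, rose 2.15-fold from 274 to 592. LTB, lymphotoxin beta, fell from 493 to 187, IL32 from 683 to 412, and IL10 from 108 to 74.7. The IL10 call ended in 6 of 8 fits without 1 array, with adjusted p up to 0.0772, and was kept only without replicate 3 of either group. It also ended in the deposited values (adjusted p = 0.142) and with median scaling (0.102). TNF itself was at 61.0 and 65.9 and did not pass (limma adjusted p = 0.740).

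**Figure D3:**
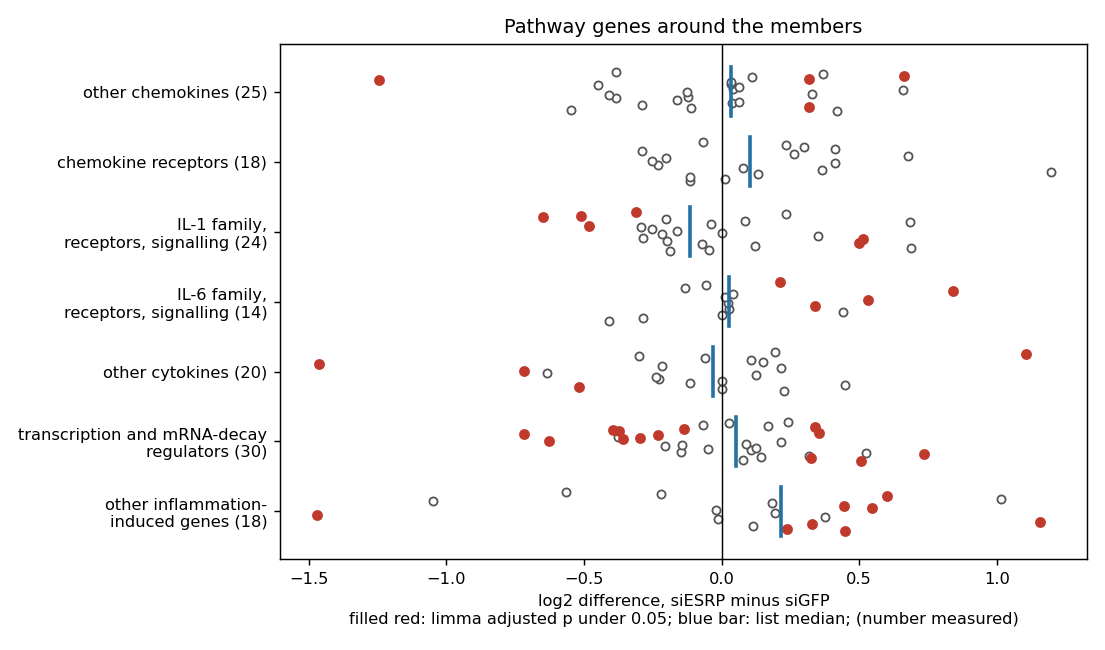
The log2 difference, siESRP minus siGFP (horizontal axis), of each measured gene in 7 lists around the chemokines and cytokines, filled red where limma's adjusted p is under 0.05, with the list median as a blue bar. Called genes lie on both sides of 0 in 5 lists, on the right only in the interleukin-6 list, and in none of the chemokine receptors.

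Of 30 measured regulators of transcription or message decay, 5 rose and 8 fell, with a list median of 0.05. Over all rows 10.9% were called higher and 9.31% lower, and a difference from those shares was not tested. Both NFKB1, an NF-kappaB subunit, and its inhibitor NFKBIE fell, from 1068 to 833 and from 675 to 411 (limma adjusted p = 0.00321 and 0.00355). KHSRP, a protein that promotes decay of AU-rich messages, fell from 1494 to 966 (adjusted p = 0.00822). In the deposited values the calls of NFKB1 and KHSRP ended (adjusted p = 0.145 and 0.0667). FOS, a component of AP-1, rose from 164 ± 7.44 to 274 ± 29.4 (SD, n = 4 each, log2 difference 0.74, limma adjusted p = 0.00141).

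Of 18 other measured genes that inflammation induces, 7 rose and 1 fell, with a list median of 0.22. Over all rows 10.9% were called higher and 9.31% lower, and a difference of this list from those shares was not tested. PLAUR, the urokinase receptor, rose from 1439 to 2107, the complement genes C3 from 1117 to 1522 and CFB from 127 to 150.2, each with limma adjusted p of at most 0.0115. MMP3, a matrix metalloproteinase, was the one that fell, from 42.8 to 15.8 (adjusted p = 0.0119). The CFB call ended in the deposited values (adjusted p = 0.334), with median scaling (0.223) and with trended and robust eBayes (0.119). PTGES and IER3, also among the 7 and described under other observations, lost their calls in the deposited values (limma adjusted p = 0.101 and 0.306). Of the 9 chemokine and cytokine genes 0 rose, and a difference from this list was not tested.

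The rows with the pattern most like CXCL8 were found by the root mean square difference between log2 profiles over the 8 arrays, each centred on its own mean, among 9645 bright rows. The nearest were NDUFB10, a subunit of respiratory complex I (0.09), SLX4, a scaffold for DNA repair nucleases (0.10), the adrenergic receptor gene ADRA1D (0.10), the immune ligand gene ICOSLG (0.11) and MTHFD1, an enzyme of folate metabolism (0.11). CCL20, CCL2, IL1A and IL1B, with both group means under 100, and CXCL1, without a row of its own, were not candidates. CXCL2, CXCL3, CXCL5 and IL6 were, and none of them was among these 5. Whether CCL20 follows the pattern of CXCL8 was therefore not examined by this search.

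**Figure D4:**
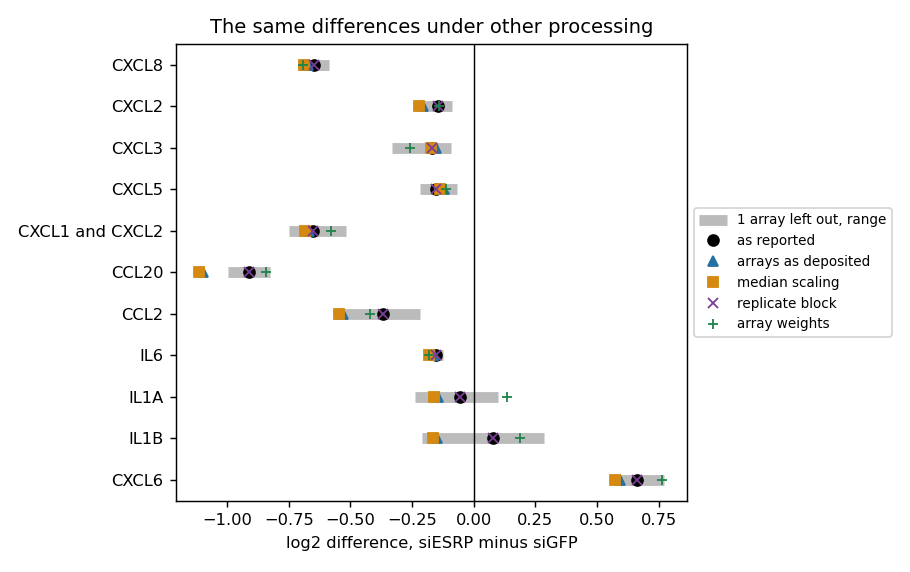
The log2 difference, siESRP minus siGFP (horizontal axis), of the same rows and CXCL6 as reported and under 4 other settings, with a grey bar for the range over the 8 fits that leave out 1 array. CXCL8 and CCL20 stay left of 0 under each setting plotted (in these, CXCL8 from −0.71 to −0.59), and IL1A and IL1B lie on both sides of it.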

How the data were processed

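Expression was measured with 1 Affymetrix exon array for each of 4 siESRP and 4 siGFP samples of PNT2 cells, grouped by the sample titles. The authors deposited linear intensity values for 18495 rows in 8 columns. How background, probe summary and scaling were handled is not given in the sources used here. Between 2.70% and 4.02% of values per array lie below 0. The deposited table has 1 value per gene-level row, so splicing was not measured, and the number of arrays limits the precision.

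Quantile normalization was applied to the linear values, anything below 0 was then raised to 0, and log2(value + 1) was tested. Fold changes are on that scale. For dim rows they depend on the pseudocount and the floor, and can be smaller or larger than the ratio of the group means. The test was limma 3.58.1 in R 4.3.3 (lmFit, eBayes, all 8 arrays, no covariate, two-sided), adjusted by Benjamini-Hochberg over all rows, with a threshold of 0.05. Tested on simulated data with 18495 rows, these steps found 44 of 100 rows that had been given a 1.5-fold change. They found 89 of 100 given a 2-fold change, with 10 false calls in all. The changed rows were drawn from rows with a mean of at least 100, so these rates do not cover dimmer rows such as CCL20. Far fewer rows were changed in the simulation than were called in the data, which also limits the comparison.

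Names are those of GEO's annotation of the platform, checked by Entrez ID; 14577 rows had 1 symbol, 2849 several and 1069 none. Where a gene had several rows, the brightest was used. Promoters are RefSeq entries of GRCh38.p14. Coordinates belong to these entries, not to the array, and the transcribed bases after each start were left out.

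The members and the lists were chosen with earlier results of these data known. The text names the 10 genes and ESRP1, up to 4 genes with the smallest p among those called in each list (all where 5 or fewer were called), and the members' receptors. CCRL2, TNF, TAB1, the shared ESRP2 row, markers and the genes under other observations were named after their values were seen. Likeness was searched for the bright member with the smallest p, among rows above 0 on all arrays with a group mean of at least 100. Alternatives were other scalings, a pseudocount of 16, leaving out the dimmest 25% of rows, other eBayes settings, array weights, a replicate block, stricter thresholds, averaging the rows of a gene, and leaving out each array. The ratio tests, with their other scalings, were added later.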

Additional observations from a re-analysis of the deposited data

Results flagged for a closer look

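In 3 of 82 groups of 4 values tested, the gap between 1 array and its nearest neighbour, as a share of the group's range, was above Dixon's 95% critical value; chance gives about 1 in 20, or 4.1. For CCL2 in siGFP the gap was 0.833 of the range, with replicate 2 low. For IL10 in siGFP it was 0.894, with replicate 3 low, and for the near-background CCR2 in siGFP it was 0.943, with replicate 1 low. No array was flagged more than once.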

How the results depend on the processing

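CXCL8 and CCL20 were called lower, and the other 7 members were not called, under each of the alternatives run in which their row was tested (IL1B was among the rows left out as dim). Over these, CXCL8 ran from −0.71 to −0.59 (adjusted p at most 0.0348) and CCL20 from −1.11 to −0.72 (at most 0.0340). Of 152 values of members under the alternatives, 7 turned direction, none of them called. IL1A was 0.13 with array weights and ran from −0.24 to 0.10 over the fits without 1 array, and IL1B was −0.15 in the deposited values, −0.16 with median scaling and ran from −0.21 to 0.28. Of the other named rows, CCR2 was −0.21, −0.23 and −0.25 to 0.20 in the same settings, and IL6R was −0.0028 with median scaling and −0.0153 to 0.0755 without 1 array. The cause was not tested. Of 541 values of other named genes and the shared row, 80 lost their call, 1 gained one and 6 turned direction.

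The median log2 difference of all rows was −0.02 as reported, −0.10 in the deposited values and −0.11 after median scaling; relative to it, CXCL8 was at −0.58 and CCL20 at −1.0 in both other scalings. The count of called rows, 3729 as reported, was 1673 on the deposited scale, 2292 with the replicate block, 1808 at adjusted p under 0.01 and 1309 with at least 1.5-fold, and ran from 2719 to 3793 without 1 array. Of 149 listed pathway genes, 39 were called (22 higher, 17 lower). This became 20 on the deposited scale (9 higher, 11 lower), 17 with the block, 15 at 0.01 and 13 with at least 1.5-fold, and ran from 28 to 41 without 1 array; the members called stayed 2. Deviations from the group means had correlations of 0.154, 0.0866, −0.268 and −0.0188 between same-numbered arrays of the 2 groups. Between arrays of different number they ran from −0.346 (siGFP replicate 4, siESRP replicate 1) to 0.51 (siGFP replicate 3, siESRP replicate 1). Such values cannot tell whether same-numbered samples were handled together, and the replicate block is given only as an alternative. Dim rows, CCL20, CCL2, IL1A and IL1B among the members, are those where signal limits what can be seen.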

Other observations

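Further genes of the fixed lists passed the limma threshold and were picked out after their values were seen. The 12 described next do not include the inhibitor NFKBIB, which also passed and fell from 663 to 565 (limma adjusted p = 0.0332). Its call under other scalings is not given here. In the deposited values 9 of the 12 lost their calls, and NFKB2, LCN2 and TNFAIP2 kept them. With median scaling REL, TNFAIP3, TNIP1 and IER3 lost theirs. Of the NF-kappaB group, RELA fell from 1566 to 1212 and RELB from 578 to 441, and NFKB2 fell from 1464 to 1191, while REL, also a subunit, rose from 407 to 517. TNFAIP3, the ubiquitin-editing inhibitor A20, fell from 1148 to 1043. Its partner TNIP1 rose from 1219 to 1542. The stress-induced transcription factor ATF3 rose from 228 to 326, and CEBPD from 393 to 493.

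Among genes that inflammation induces, LCN2, an iron-sequestering protein of the antibacterial response, rose from 78.3 ± 18.2 to 176 ± 41.1 (SD, n = 4 each). PTGES, the terminal enzyme of prostaglandin E synthesis, rose from 2352 to 3192, TNFAIP2 from 655 to 999 and IER3 from 1323 to 1663. PTGS2, the inducible cyclooxygenase, was 1870.4 in siGFP and 2126 in siESRP with non-overlapping groups, and did not pass (limma adjusted p = 0.0687).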
